A study of Mus musculus with 4 samples.

Results

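The sites described here are the glucocorticoid receptor peaks that were listed after 1 h of corticosterone and had no overlapping peak, by 1 bp or more, in the list made after 12 h. They numbered 3202 of 5638 peaks at 1 h (56.8%, Wilson 95% interval 55.5 to 58.1%), and the other 2436 are called shared sites below. Members were thus chosen by measured peak calls. The receptor was mapped by ChIP-seq, sequencing of DNA recovered with an antibody against it, in 33AP1C9 cells, a mouse line derived from C127 mammary epithelial cells. All cells carried an integrated MMTV-pp7 reporter and a GFP-tagged PP7 coat protein, and were kept in charcoal-stripped serum for 48 h before hormone. The 3 groups used were untreated cells (79203826 tags), 600 nM corticosterone for 1 h (90556119 tags) and 600 nM for 12 h (97749688 tags), with 1 library each. The other sample, an input, entered no comparison; its label gives corticosterone, whereas the untreated list's header names an untreated input. Per the labels, each sample, the input included, has its own catalogue number for the second antibody of the receptor mixture; the numbers step evenly from sample to sample, so whether the antibodies differed is unclear. With 1 library each, library and time cannot be told apart. Peaks do not measure expression, so the labelled cell type was not checked against markers.

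The glucocorticoid receptor is a ligand-activated transcription factor. Bound by corticosterone, the main glucocorticoid of rodents, it moves to the nucleus and binds palindromic response elements, often in enhancers far from the genes they regulate and in chromatin already opened by other factors such as AP-1. Many of its contacts with DNA are short-lived, and receptor binding in a population of cells rises and falls with hormone. The membership rule used the measured peak lists, so strength and margin are given as descriptions of the members, without a test.

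Sequence was at hand only for promoters, from a RefSeq table of GRCm38.p6 (the assembly of mm10) with windows of 250 bases before to 50 after each start site. Start sites of 1 chromosome were not used here, which left 3108 of the 1 h only and 2368 of the shared sites. Few sites touched a promoter window: 47 of the 1 h only sites (1.51%, 1.14 to 2.005%) and 43 of the shared sites (1.82%, 1.35 to 2.44%). Windows were searched on both strands for the glucocorticoid response element, taken as GNACA and TGTNC with any 3 bases between them, for its single hexamer AGAACA, which can lie within the element, and for the AP-1 site TGANTCA. The full element was in 4 of the 55 windows touched by 1 h only sites (7.27%, 2.86 to 17.3%), which belong to 3 genes, in 12 of the 45 touched by shared sites (26.7%, 16.0 to 41.0%), and in 0.479% of all 32585 windows. The hexamer was in 23.6%, 35.6% and 19.0%, and the AP-1 site in 23.6%, 15.6% and 7.85%, in the same order. For the full element, the hexamer and the AP-1 site alike, the intervals in the 2 kinds of site overlap. Windows of neighbouring start sites overlap and are not independent. A match describes the letters and does not show that the receptor bound there.

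The following 4 sequences show which letters lay under 1 h only sites at promoters. Each is the part of a peak upstream of the start site, read on the gene's strand, with matches in capitals. Gm29906, a predicted gene (chr1:70918510-70918742, minus strand), has a response element and a pair of AP-1 sites. Lca5l (chr16:96192356-96192507, minus strand) has a response element. Tmem167b, which encodes a membrane protein (chr3:108562528-108562716, minus strand), has a pair of single hexamers. Ctla2a, a cysteine protease inhibitor gene (chr13:60936626-60936875, minus strand), has a hexamer and an AP-1 site.
Gm29906: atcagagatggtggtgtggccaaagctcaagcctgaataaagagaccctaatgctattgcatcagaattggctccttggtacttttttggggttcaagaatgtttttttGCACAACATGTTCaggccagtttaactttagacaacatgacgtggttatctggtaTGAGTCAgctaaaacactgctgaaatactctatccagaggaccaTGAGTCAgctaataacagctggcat
Lca5l: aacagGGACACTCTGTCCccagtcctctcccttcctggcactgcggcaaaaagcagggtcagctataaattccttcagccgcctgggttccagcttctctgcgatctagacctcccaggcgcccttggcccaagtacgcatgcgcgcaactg
Tmem167b: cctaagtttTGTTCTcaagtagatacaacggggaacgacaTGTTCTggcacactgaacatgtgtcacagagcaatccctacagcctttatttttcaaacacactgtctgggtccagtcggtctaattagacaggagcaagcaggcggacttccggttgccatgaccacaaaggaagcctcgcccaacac
Ctla2a: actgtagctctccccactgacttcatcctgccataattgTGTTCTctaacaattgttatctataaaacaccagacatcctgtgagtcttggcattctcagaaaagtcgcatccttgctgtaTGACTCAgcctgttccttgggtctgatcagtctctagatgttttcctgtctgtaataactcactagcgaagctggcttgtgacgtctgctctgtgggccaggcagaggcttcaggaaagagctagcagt

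For contrast, 2 promoters under shared sites are Slc10a6, a steroid sulfate transporter gene (chr5:103629418-103629653, minus strand), where the hexamer and the full element overlap in 1 run of capitals, and A230028O05Rik (chr16:25059389-25059548, plus strand).
Slc10a6: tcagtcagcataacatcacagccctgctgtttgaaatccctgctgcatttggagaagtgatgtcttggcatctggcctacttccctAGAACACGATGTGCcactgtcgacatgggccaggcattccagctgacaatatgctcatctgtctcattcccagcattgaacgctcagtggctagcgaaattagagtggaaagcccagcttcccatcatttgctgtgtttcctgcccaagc
A230028O05Rik: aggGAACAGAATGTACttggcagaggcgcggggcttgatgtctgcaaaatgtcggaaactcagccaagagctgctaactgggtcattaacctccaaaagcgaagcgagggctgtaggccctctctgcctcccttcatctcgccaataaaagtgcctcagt

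These promoter peaks differed in strength at 1 h. The Gm29906 site held 153 raw tags at 1 h and 16 in the untreated library. At Lca5l there were 14 normalised tags at 1 h over 11 raw untreated tags. At Ctla2a the raw tags were 140 and 7, and at Tmem167b 335 and 33. The 2 shared sites shown held more, with 1171 tags against 14 untreated at Slc10a6 and 1295 against 7 at A230028O05Rik. They are among the strongest shared promoter peaks. Others held far fewer raw tags, such as 110 at Gm33024 and 125 at Gm8883. Among all 47 promoter peaks listed at 1 h only, the median was 14.9 normalised tags (8.17 to 37.0), and 28 of them stood under 1.5 times at least 1 of the caller's minimums. Normalised tags are scaled to a library of 10000000.

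After Tmem167b the strongest promoter peak lay at Maff, which encodes a small MAF transcription factor. It had 31.6 tags, or 286 raw tags against 8 in untreated cells, and the nearest 12 h peak was 216.4 kb away. The next peaks, of 26.9 and 24.7 tags, were at the predicted genes Gm32011 and Gm33659. Orm3, an acute-phase orosomucoid gene, had 24.1 tags with a 12 h peak 3.998 kb away, and Notch4, a Notch receptor, had 22.3 tags. Cxcl1, a neutrophil chemokine gene, was near the lower end with 9.61 tags, or 87 raw tags against 9. A pair of microRNA hairpins, Mir344d-2 and Mir6404, were overlapped by 1 h only sites of 26.3 and 19.1 tags.

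Most 1 h only sites were weak, but the range was wide. They held a median of 14.7 normalised tags (quartiles 11.1 to 20.2, range 7.51 to 162), which is 133 raw tags, against a median of 29.4 at shared sites (quartiles 18.1 to 54.0, range 7.73 to 432.9). The ranges overlap, and the strongest 1 h only site lay well below the strongest shared site. Median fold over the untreated library was 11.2 against 22.8, and median fold over the surrounding 10 kb was 9.46 against 17.1. The focus ratio, the fraction of tags close to the peak centre, was 0.827 against 0.861. In sum the 1 h only sites held 0.563% of the 1 h library and 33.6% of all tags in 1 h peaks. Mean raw tags in the untreated library were 11.2 at 1 h only and 11.7 at shared sites, against 10.8 expected from its average, which rests on the caller's genome size.

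How far a site stood above the caller's minimums tracked whether it was listed again. The caller required a score of at least 75, a fold of 6 over untreated cells and a fold of 6 over the local region, and the smallest of these 3 margins is used below as a ratio. Its median was 1.33 at 1 h only and 2.55 at shared sites. At 2032 of the 1 h only sites (63.5%) the smallest margin was under 1.5, compared with 464 shared sites (19.1%), and at 632 it was under 1.1. Of all 1 h peaks with a margin of 1 to 1.1, 86.2% (83.5 to 88.5%) were listed at 1 h only. The share was 60.8% (57.9 to 63.7%) from 1.5 to 2, 16.0% (13.4 to 19.0%) from 3 to 5, and 4.39% (2.86 to 6.68%) at 5 or more. At the low end, the peaks nearest to Aebp2 and Ptchd1 had the lowest possible score of 75 and 8.06 tags each.

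**Figure D1:**
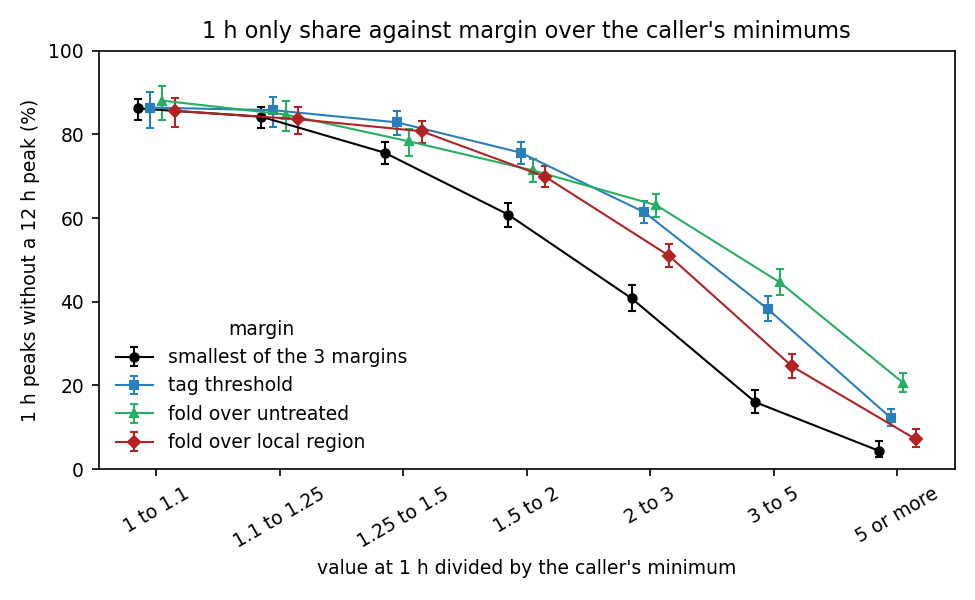
Share of 1 h peaks that had no 12 h peak (y axis, percent) by how many times over the caller's minimum they stood (x axis, classes), for each of the 3 minimums and for the smallest of them; bars are Wilson 95% intervals. The share for the smallest margin drops from 86.2% in the first class to 4.39% in the last.

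The minimum that a site stood closest to was most often the local one. Fold over the local region was closest at 1450 of the 1 h only sites (45.3%), fold over untreated at 948 (29.6%) and the tag threshold at 804 (25.1%). At shared sites the local fold was closest at 59.9%.

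Absence from the 12 h list gives no tag level there, because 12 h tags at unlisted sites were not given. A site could be left out for its score, for its fold over untreated cells or over the local region, or, as at 23 sites with a 12 h peak within 0.604 kb, under the caller's minimum distance between peaks. A reference level for 12 h was therefore computed as the tag threshold, 7.67 normalised tags, or 6 times the untreated tags where that was higher, and its median over the 1 h only sites was 8.92. It is an approximation: the caller applies the threshold to its score, and 33 of the 2883 listed 12 h peaks held fewer tags than 7.67, down to 6.96. The 1 h tags were a median of 1.48 times the level at 1 h only sites, against 2.97 times at shared sites. With tags as at 1 h, 155 of the 3202 sites (4.84%) would have fallen under this level at 12 h, and 154 with 6.96 tags in place of the threshold. The level scales untreated tags to the wider 12 h window, whereas the 1 h tags were left unscaled. Of the 155 sites, 154 fell under the fold over untreated cells, so the count rests on this scaling. When untreated tags were not scaled, 1 site fell under the level. At shared sites the median ratio of 12 h over 1 h tags, not corrected for the wider 12 h window, was 0.710. It rests only on sites listed again at 12 h. Sites that fell below the minimums are left out, so it may be too high for the 1 h only sites. Had every 1 h only site kept that ratio, its local fold included, 1849 (57.7%) would have fallen under the level or the local minimum, as would 392 of the 2436 shared sites (16.1%). At 0.5 times the 1 h level, 2697 would have done so and 505 would not. These are computed levels and not measurements at 12 h, and the local fold at 12 h was not given.

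A small group stood far above every minimum. At 20 of the 3202 sites the smallest margin was 5 or more, with 44.5 to 142 tags at 1 h. In untreated cells these 20 windows held 6 to 23 raw tags. Their 1 h tags were 4.85 to 14.6 times the computed 12 h level, and 10 of them lay inside a protein-coding gene. The largest margin, 8.30, was 18.2 kb from Urb2, a ribosome biogenesis gene (chr8:124066559-124066841), with 741 raw tags at 1 h against 8 untreated and the nearest 12 h peak 750.8 kb away. Inside Nek7, a kinase of the NLRP3 inflammasome, the margin was 8.26 and the 12 h peak 35.4 kb away. Within Lrig1, a restraint on epidermal growth factor receptor signalling (chr6:94658216-94658498), a site held 772 raw tags against 16, and the nearest 12 h peak was 1581 kb away. Hs6st1, a heparan sulfate sulfotransferase gene, was the nearest gene, at 153.9 kb, to a site of 890 raw tags against 8, and the nearest 12 h peak was 1542 kb away. Next to Ccl17, a T cell attracting chemokine gene, a site lay 0.021 kb from the gene with 598 raw tags against 7, and a margin of 6.29.

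**Figure D2:**
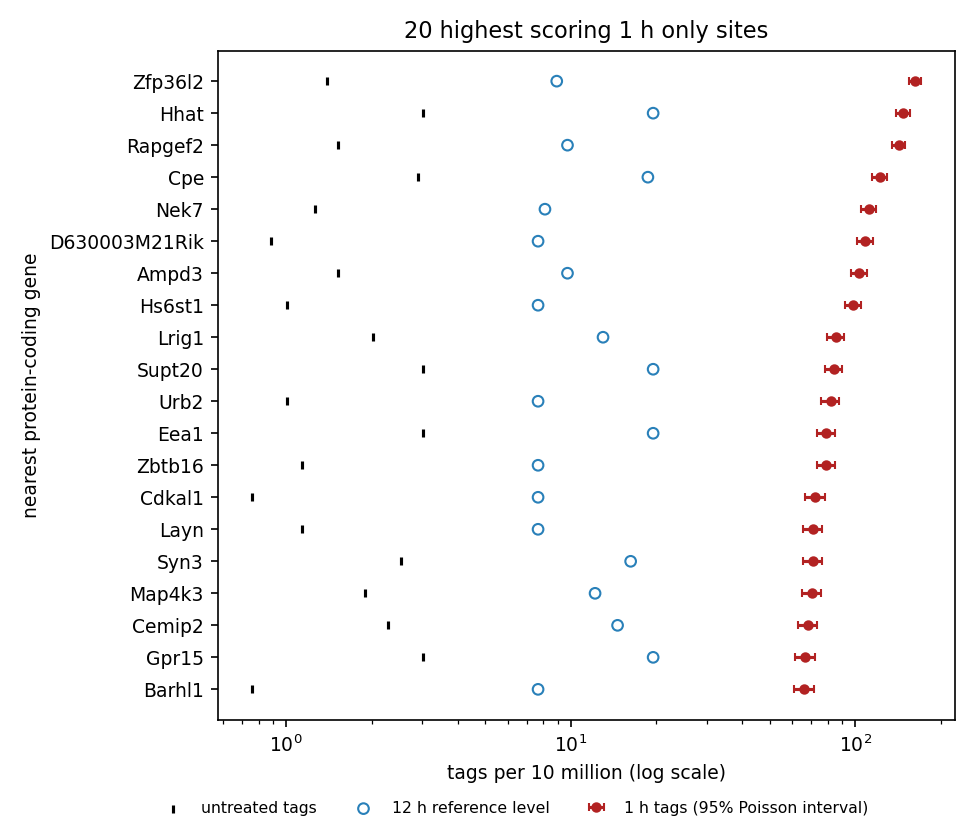
The 20 highest scoring 1 h only sites, named by nearest protein-coding gene (y axis), with normalised tags on a log scale (x axis): 1 h tags with 95% Poisson intervals, untreated tags, and the reference level computed for a 12 h window. The 1 h tags run from 66.0 to 162 and lie above that level at each of the 20.

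Among the 20 highest scoring sites, some lay next to a 12 h peak and others far from any. At 5 of them (nearest to Zfp36l2, Hhat, D630003M21Rik, Ampd3 and Zbtb16) a 12 h peak lay within 5 kb, and the fold over the local region was 8.27 to 19.6. At the other 15 no 12 h peak lay within 5 kb, and the local fold was 22.0 to 51.0. Inside Zbtb16, which encodes a zinc finger factor that glucocorticoids induce, the site held 79.0 tags and the 12 h peak 1.08 kb away held 143.9. At 10 of the 20 sites the nearest 12 h peak was over 100 kb away. These include the sites nearest to Cpe, a carboxypeptidase of prohormones (1104 raw tags against 23 untreated), Layn, a hyaluronan receptor (642 against 9), Cemip2, a hyaluronidase (615 against 18), Gpr15, a chemoattractant receptor (601 against 24), and Barhl1, a homeobox gene (598 against 6).

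Across all 1 h only sites, a 12 h peak was usually far off. The median distance, centre to centre, was 149.7 kb (quartiles 37.2 to 450 kb, 3201 sites). A 12 h peak lay within 1 kb of 46 sites, within 5 kb of 153 (4.78%), within 100 kb of 1345 (42.0%) and within 1 Mb of 2881 (89.98%). The 153 sites near a 12 h peak were stronger and stood out less from their surroundings than the rest. Their median was 22.2 tags against 14.4, and their median local fold 7.75 against 9.56. The local fold was the closest minimum at 135 of the 153 (88.2%) and at 43.1% of the rest. Tags of a neighbouring peak within 10 kb enter the local region of that ratio, and their part in these values was not tested.

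**Figure D3:**
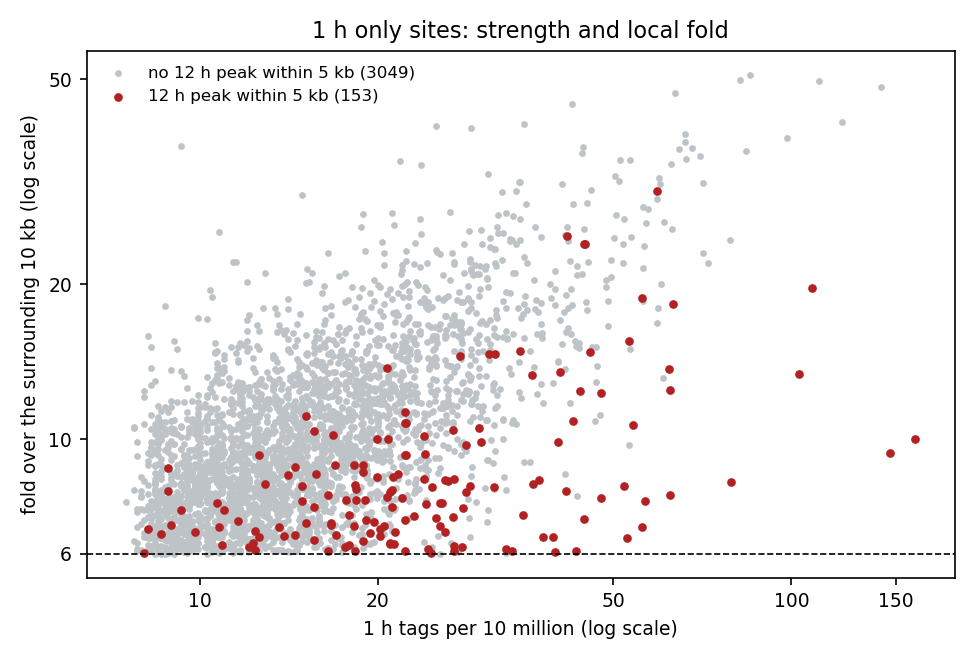
Normalised tags at 1 h (x axis, log scale) and fold over the surrounding 10 kb (y axis, log scale) of each 1 h only site; red points have a 12 h peak within 5 kb (153), grey points do not (3049, of which 1 lies on an unplaced sequence with no 12 h peak). The dashed line is the minimum fold of 6, and many red points lie near it, also at high tags.

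The boundary of the rule was narrow in a few places. Just inside it, a site 7.56 kb from Ptprj, a receptor tyrosine phosphatase gene, held 59.4 tags at 0.295 kb from a 12 h peak of 18.9 tags. The sites nearest to Fbxl17, Gipc2 and Grhpr held 14.9, 19.9 and 19.9 tags at 0.298, 0.302 and 0.310 kb. Just outside it, the shared site nearest to Clvs1 overlapped a 12 h peak by 12 bp with 21.5 tags, and those nearest to Pgrmc2 and Pnlip by 46 bp with 85.9 and 62.3 tags. Windows of 282 bp at 1 h and 302 bp at 12 h were fixed by the caller, so such a pair could reflect 1 binding site, which was not tested.

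Untreated tags and local fold were also read within quintiles of the caller score. In the highest quintile, the 155 1 h only sites had a mean of 15.5 untreated tags and a median local fold of 18.6, against 12.9 and 29.7 at 972 shared sites. Scores were not alike there, running from 333 to 1455 against 334 to 3792, and median tags were 45.8 against 65.3. In the next quintile down, with median tags of 26.3 against 27.7, the values were 14.1 and 13.6 against 12.2 and 15.9. In the lowest quintile they were 8.25 and 7.84 against 7.89 and 8.22. The caller used both measures to list peaks at 12 h as well, so nothing is read from these differences. The share inside a protein-coding gene was 48.4% (40.7 to 56.2%) against 41.4% (38.3 to 44.5%) in the highest quintile, where the intervals overlap.

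**Figure D4:**
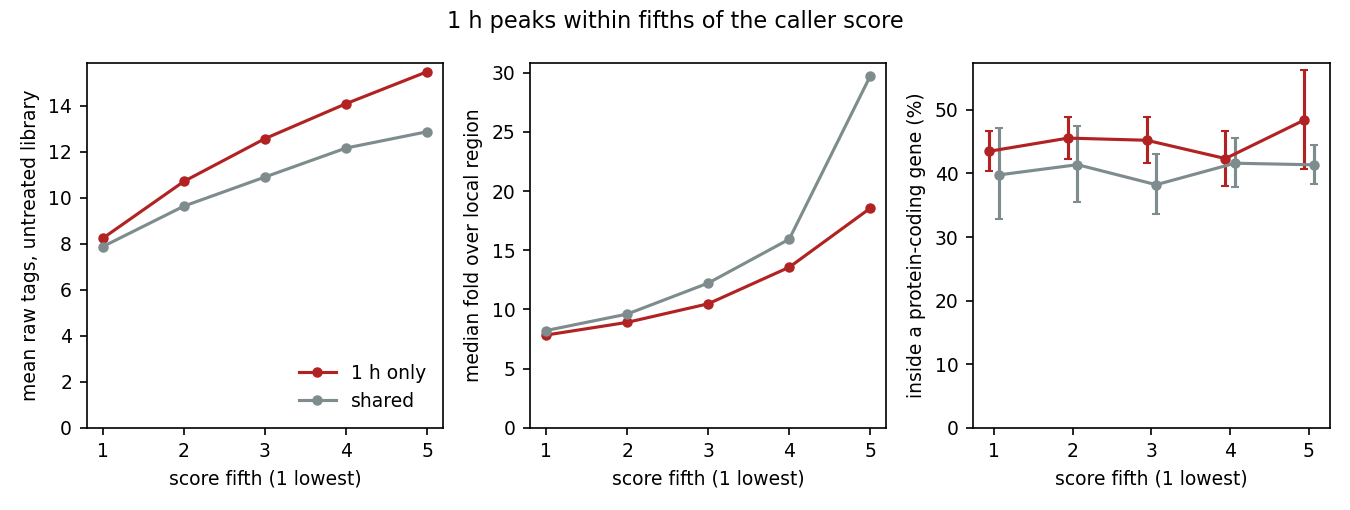
Mean raw tags in the untreated library, median fold over the local region and share of peaks inside a protein-coding gene (y axes) in quintiles of the caller score (x axis), for 1 h only (red) and shared (grey) sites; bars in the third panel are Wilson 95% intervals. Untreated tags were higher and local folds lower at 1 h only sites in each of the 5 quintiles.

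In relation to genes, both kinds of site lay mostly away from start sites. Of 3201 1 h only sites on named chromosomes, 44.5% (42.8 to 46.2%) were inside a protein-coding gene, against 40.8% (38.9 to 42.8%) of shared sites. With chromosome 18 left out, a start site was within 1 kb of 123 of 3108 (3.96%, 3.33 to 4.70%), against 3.89% (3.18 to 4.74%). Sites outside genes were a median of 38.5 kb and 41.0 kb from the nearest one. By chromosome, the 1 h only share of 1 h peaks ran from 50.7% (42.4 to 59.1%) on X to 60.3% (53.5 to 66.8%) on 17, leaving out an unplaced sequence with 1 peak.

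Genes were counted where a site lay in the gene span or within 25 kb. Of 21631 protein-coding genes, 17.1% had any 1 h peak, 11.5% (2498 genes) had a 1 h only site and 9.33% had a 12 h peak. A 1 h only site with no 12 h peak was found at 1809 genes (8.36%), which is 48.9% of the 3697 genes with a 1 h peak. The other 689 had a 12 h peak too. Most of the 2498 genes had 1 such site, 338 had 2 and 108 had 3 or more. Neighbouring genes can count the same site. With sites at 2 or more times each minimum alone 486 genes had one, and within 100 kb of a gene 5870 did.

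Some genes gathered several sites listed at 1 h only and had no 12 h peak within 25 kb. Frmd4a, a scaffold gene of epithelial polarity, had 6, all inside the gene, with 18.6, 15.6, 15.6, 23.1, 26.1 and 11.4 tags. The strongest of these held 236 raw tags against 11 in untreated cells, and the 12 h peak nearest to it was 696.8 kb away. Dner, a Notch ligand gene, and Pid1, which encodes a phosphotyrosine interaction protein, had 5 each and shared a pair of them, with strongest sites of 27.7 and 27.9 tags. Cdk14, a cyclin-dependent kinase gene, and Pdgfd, a platelet-derived growth factor ligand, had 5 each with strongest sites of 26.1 and 22.3 tags. Il1rl1, a receptor of the interleukin-1 family, had 4 sites of 10.9, 49.0, 22.3 and 62.8 tags, the strongest with 569 raw tags against 22. Il34, a ligand of the macrophage colony-stimulating factor receptor, shared its 4 sites with its neighbour Sf3b3. Adamtsl1 and Sugct had 4 each of at most 25 and 15.9 tags. Long genes have more room for sites, and the part of gene length in these counts was not tested.

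For the pathways, 14 gene lists of 250 distinct genes were read against these shares of all genes. In all, 74 members had a 1 h only site, and 38 of them had no 12 h peak within 25 kb. Of all 2498 genes with a 1 h only site, 1809 (72.4%) had no 12 h peak. The median of the strongest sites of the 74 members was 17.4 tags, against 14.9 over all 2498 genes. With sites at 2 or more times each minimum alone, 14 members had one, and the count of each list was at most 3. For 15 of the 74 another protein-coding gene lay nearer to the site, and at 40 the strongest site was under 1.5 times a minimum. Housekeeping genes, a list with no tie to the hormone, had a 1 h only site at 4 of 15 (26.7%), each with no 12 h peak. At 25 kb, a share over 11.5% was thus not particular to hormone-related lists. For 2 of these 4 housekeeping genes another protein-coding gene lay nearer to the site. Within 10 kb, 1 housekeeping gene and 13 of the 28 core glucocorticoid targets had a 1 h only site, as did 1724 of all 21631 genes.

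**Figure D5:**
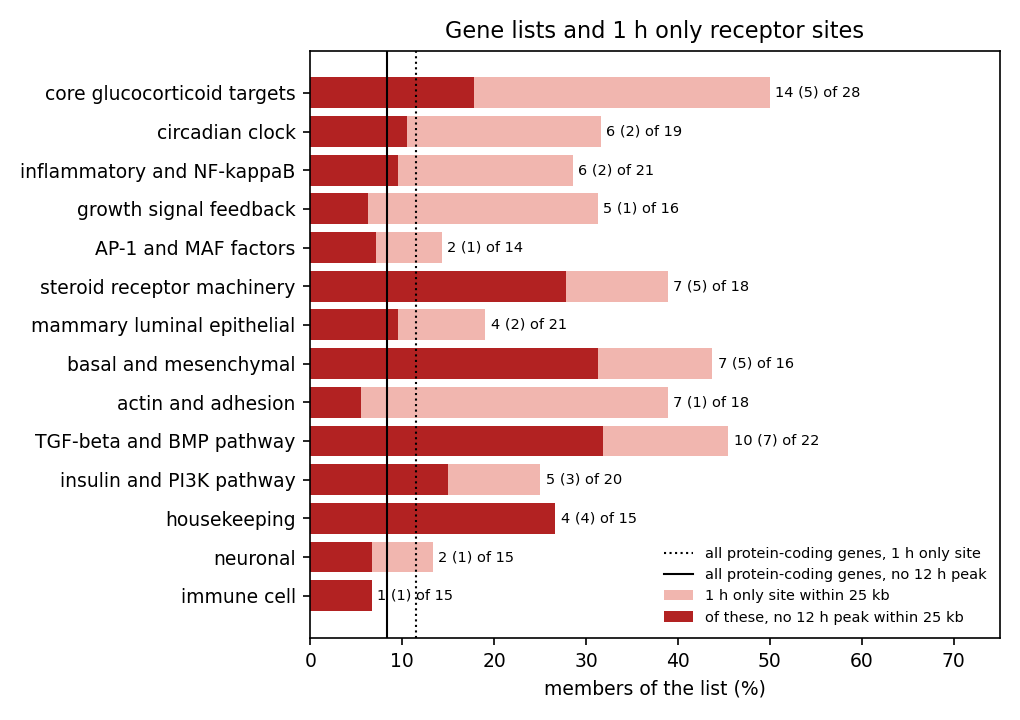
Share of members of each gene list (y axis) with a 1 h only site within 25 kb (pale bars) and with such a site and no 12 h peak within 25 kb (dark bars), in percent of members (x axis). Lines mark the shares over all protein-coding genes, 11.5% (dotted) and 8.36% (solid); counts are members with a 1 h only site, with those lacking a 12 h peak in brackets, of all members.

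Most core glucocorticoid targets near a 1 h only site had a 12 h peak as well. Of 28 core glucocorticoid targets, 14 had a 1 h only site (median of the strongest 17.4 tags), and 5 of these 14 had no 12 h peak within 25 kb. At 8 of the 14 the strongest site was under 1.5 times a minimum. Zbtb16 had 1 such site beside 8 peaks at 12 h. Fkbp5, whose product lowers the receptor's affinity for hormone, had a 1 h only site inside the gene of 43.4 tags (393 raw tags against 18 untreated) beside 2 peaks at 12 h. Ddit4, an inhibitor of mTOR signalling, had 2 sites of which the stronger held 27.8 tags, and Klf9, a Krüppel-like factor gene, had 1 of 26 tags at 0.812 kb from a 12 h peak. The 5 targets with no 12 h peak were Suox, Lcn2, Angptl4, Nfkbia and Rgs2. Suox, the sulfite oxidase gene, had 231 raw tags at 1 h against 15 untreated. Lcn2, the siderophore-binding lipocalin, had 191 raw tags against 2, a ratio of 83.5 with a counting interval of 22.8 to 694.7. Angptl4, an inhibitor of lipoprotein lipase, had 163 against 21, and Rgs2, a regulator of G protein signalling, had 78 against 11. Both barely passed at 1 h, with smallest margins of 1.13 at Angptl4 and 1.03 at Rgs2. Their 1 h tags were 1.06 and 0.965 times the computed 12 h level, so their absence at 12 h says little. Nfkbia, the inhibitor of NF-kappaB (chr12:55491860-55492142), had 113 raw tags against 0 untreated, at least 32.9-fold higher with a floor of 3 counts in the untreated library.

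Proteins that handle the hormone and its receptor were represented in 7 of 18 genes (38.9%, against 11.5% of all genes). Of the 7, 5 had no 12 h peak, as had 72.4% of all genes with a 1 h only site. Ncoa2, a receptor coactivator, and Hsp90ab1, the chaperone that holds the unliganded receptor, had 1 h only sites of 18.3 tags each. The Ncoa2 site had 166 raw tags against 13 untreated. The Hsp90ab1 site lay 23.5 kb from the gene, inside Slc29a1, with 166 against 2 (ratio 72.6, 19.8 to 604.4). Hsd11b1, which regenerates active glucocorticoid, had 118 raw tags against 9 inside the gene, and Abcb1a, an exporter of steroids, had 138 against 11. Stip1, an HSP90 co-chaperone, had 139 against 17.

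Clock genes, some of which are glucocorticoid targets, had 1 h only sites at 6 of 19, and 2 of these had no 12 h peak. Dbp, a clock output factor, had the strongest at 52.2 tags (473 raw tags against 23 untreated), 24.9 kb from the gene and nearer to Sec1, and the nearest 12 h peak was 2125 kb away. Nr1d1, a nuclear receptor that represses Bmal1, had 24.7 tags at 13.5 kb, nearer to Thra. Tef, a factor of the same family as Dbp, had 2 sites of at most 33.6 tags beside a 12 h peak. Per2 had 18.6 tags at 15.2 kb, nearer to Ilkap, and Npas2 had 27.9 tags inside the gene. Within 10 kb of the genes, 2 of the 19 clock genes had a 1 h only site.

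Inflammatory and NF-kappaB genes had 1 h only sites at 6 of 21, and 2 of the 6 (Nfkbia and Socs3) had no 12 h peak within 25 kb of the gene. The Socs3 site itself lay 9.78 kb from a 12 h peak. The count of genes with a 1 h only site was 3 when a 12 h centre within 10 kb also paired. It was 0 with sites at 2 or more times each minimum alone, and 10 within 100 kb of the genes. The receptor is known to repress many cytokine genes and to induce Nfkbia, which encodes an inhibitor of NF-kappaB. Csf1, a macrophage growth factor gene, had 54.0 tags (489 raw tags against 13 untreated) at 4.31 kb from a 12 h peak. Cxcl5 had 26 tags, with 235 raw tags against 27. Cxcl1 and Cxcl2 lie beside each other and counted the same 2 sites, the stronger of 18.1 tags. Growth signal feedback genes had such sites at 5 of 16, and Lrig1 was the 1 of these without a 12 h peak. Dok1 and Rasa3, which restrain Ras signalling, had 21.5 and 18.9 tags. Among AP-1 and MAF factors 2 of 14 had a 1 h only site, which were Maff and Junb, and Junb had 3 of at most 19.4 tags beside a 12 h peak.

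Genes of the TGF-beta and BMP pathway had a 1 h only site at 10 of 22, of which 7 (31.8% of the list, against 8.36% of all genes) had no 12 h peak. Among all genes with a 1 h only site, 72.4% had no 12 h peak. The strongest sites of the 10 pathway genes had a median of 12.6 tags, and 5 of the 10 stood under 1.5 times a minimum. Of the receptors, Tgfbr2 had 16.2 tags and no 12 h peak, and Tgfbr3 had 22.0 tags beside 2 peaks at 12 h. Id3, an inhibitor of DNA binding, had 17.0 tags beside a 12 h peak.

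Basal and mesenchymal genes had 1 h only sites at 7 of 16, of which 5 (31.2% of the list, against 8.36% of all genes) had no 12 h peak. Among all genes with a 1 h only site, 72.4% had no 12 h peak. At 6 of the 7 the strongest site was under 1.5 times a minimum. Col3a1 and Sparc, extracellular matrix genes, had 23.1 and 21.3 tags, and the Sparc site stood on 27 raw tags in untreated cells. Zeb2, a repressor of epithelial genes, had 2 sites of at most 16.8 tags. Luminal epithelial genes had 4 of 21, with Lcn2 and Cldn3 lacking a 12 h peak and the keratin genes Krt7 and Krt18 having 1. Actin and adhesion genes had 7 of 18, and Zyx alone of these had no 12 h peak within 25 kb of the gene. Its strongest site, of 8.94 tags, lay 24.0 kb from Zyx, nearer to Epha1, and 12.3 kb from a 12 h peak. Mical2, an actin-oxidising enzyme gene, had 6 sites summing to 141.5 tags, and Tns1, a focal adhesion tensin, had 4 beside 8 peaks at 12 h.

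In the insulin and PI3K pathway 5 of 20 genes had a 1 h only site, and Eif4ebp1, Pik3r1 and Tsc1 had no 12 h peak. Eif4ebp1, a repressor of translation, had 230 raw tags at 1 h against 1 untreated, a ratio of 201.2 (35.8 to 7980). Sesn1, a stress-responsive inhibitor of mTOR, had 52.7 tags at 4.06 kb from a 12 h peak, with a local fold of 6.45. Of the lists for cells other than mammary epithelium, 2 of 15 neuronal and 1 of 15 immune genes had a 1 h only site. Map2, a microtubule protein gene, had 18 tags, and Itgam, an integrin of myeloid cells, had 17.8. Of the 4 housekeeping genes with a 1 h only site, Actb had 20.9 tags, Gusb 19.3 and Tubb5 14.7.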

How the data were processed

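ChIP-seq peak lists of 3 libraries were used, 1 per condition. The submitters' processing notes name Bowtie2 2.2.6, bcl2fastq 2.17, HOMER and the build mm10. Per the file headers, the authors called peaks library by library with HOMER findPeaks and took the untreated ChIP library as control of both treated lists. Settings were a false discovery rate of 0.001, a tag threshold of 75, a minimum fold of 6 over control and over 10 kb around the peak, and a p-value limit of 0.0001 (Poisson). Of candidates, 27.2% at 1 h and 42.7% at 12 h were removed for low fold over control. The signal is the normalised tag count that the authors deposited, scaled to 10000000 tags. The deposited score and focus ratio (a fraction) and the deposited folds (ratios) are the authors' own values from the caller. Deposited control tags, also a signal, are whole untreated tags with a placeholder where there are none; raw treated tags were recovered by undoing the scaling to the untreated library, and 100% of peaks then had a whole number to within 0.1.

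Lists were intersected in Python 3.11.15 with pandas 2.3.3, numpy 2.4.6 and scipy 1.17.1. Overlap and gene counting were checked on simulated peaks. The reference level for 12 h was the larger of the tag threshold and 6 times the untreated tags. Only the untreated tags were scaled to the 12 h window width, not the 1 h tags compared with the level. Genes and promoters came from RefSeq tables of GRCm38.p6. No test was made, since each condition has 1 library and the rule uses the lists. For the same lack of replicates, Wilson and Poisson intervals cover counting error only. They also take each tag as independent, and duplicates of 1 molecule cannot be recognised. The members and gene lists were chosen with earlier results of these data known.

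Named sites are the 20 highest scoring, those with the largest margins, the leading sites over 100 kb from a 12 h peak, the 5 on either side of the rule, the 3 lowest, those at promoters, the sites furthest over the 12 h reference level, the genes with most sites and no 12 h peak, and up to 4 members per list; further list members named were chosen after their values were seen, and a few selected items are not named. Alternatives changed the overlap rule, the peaks admitted, the gene distance and gene set, and the width scaling.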

Additional observations from a re-analysis of the deposited data

Results flagged for a closer look

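In the untreated list, which entered the comparisons only as the control library, 1 peak was listed next to Pgk1, with a fold of 44.2 over its input. It is named here because it is signal in data outside the comparison of the 1 h and 12 h lists. It overlapped 0 peaks of the treated lists. Those lists required a fold of 6 over the untreated library, which makes listing at this place unlikely, so nothing is read from the 0.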

How the results depend on the processing

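The results stayed within their limits when an overlap of 50% of the 1 h peak was required, when a 12 h centre within 1 kb also paired, or on assembled chromosomes alone. When a 12 h centre within 10 kb also paired, the 1 h only share was 51.5%, the median 14.2 tags and the median distance 188.3 kb. With 1 h peaks at 1.5 or more times each minimum, 1170 sites (37.2%) were 1 h only, with a median of 20.6 tags, 1054 genes and 38 list members. At 2 or more times, the values were 516 sites (24.96%), 26.9 tags, 486 genes and 14 list members. With the leading 1 h peaks by score, as many as the 12 h list holds, 1052 (36.5%) were 1 h only, with a median of 23.6 tags, 28.0% under 1.5 times a minimum, 100.2 kb to a 12 h peak, 862 genes and 35 list members. Within 100 kb of genes, 5870 genes and 121 list members had such a site, and within 10 kb 1724 genes and 53 list members did. All RefSeq gene spans held 54.3% of the sites. Without scaling untreated tags to the window width, 1 site, not 155, would have fallen under the computed 12 h level at unchanged tags, and the median ratio to the computed level was 1.54. With the lowest tags of a listed 12 h peak in place of the threshold, an alternative chosen after seeing the data, that ratio was 1.545. Counted over every alternative, the settings named first included, 37 of these values stayed within their limits and 26 moved. For the gene lists, 47 counts moved by over 1.5 times and 79 did not. Within a list, tags per base only change the scale, since its windows have 1 width. Between the lists the widths differ (282 bp at 1 h, 302 bp at 12 h), and the ratio of 12 h over 1 h tags was not corrected for this. No paired analysis was possible because each group has 1 library. What depth limits is the weak end: a site needed a caller score of 75 to be listed, and sites below that score cannot be told from sites without signal.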
